A study of Drosophila melanogaster with 3 samples.

Results

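The *Turandot* genes of *Drosophila melanogaster* encode small secreted peptides of the larval and adult blood, the haemolymph, that are made chiefly by the fat body after stress. Their levels were read from RNA-seq of male 3rd instar larvae, taken whole, of 3 genotypes with 1 library for each. The genes *TotA*, *TotB*, *TotC*, *TotE*, *TotF*, *TotM*, *TotX* and *TotZ* were chosen by name among 15185 entries of the expression table, and 8 of 8 were found. Of these, 7 carried the symbol itself, and *TotE* was listed under its older name *Victoria*, which RefSeq gives as a synonym.

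The mxcmbn1 larvae carry a mutant allele of *mxc* (multi sex combs), a gene on the X chromosome needed for histone gene expression, and develop tumours of the lymph gland, the larval blood-forming organ. Their stock also carried w1, an allele of *white*, and had been obtained from a stock with a duplication that was then removed. The mxcG43 larvae carry a hypomorphic *mxc* allele without a tumour phenotype, from a Bloomington stock. Canton S is the wild-type strain. The paper reports that some mxcmbn1 mutants were still larvae days after control larvae had pupated. It describes the mxcmbn1 and wild-type larvae that were sequenced as being of the same stage. The age of the larvae in days was not given in the sources used here, and separate cultures were not stated. The allele, the background of its stock, the age of the larvae and the library cannot be told apart in this design. With no replicates, differences could not be tested against the spread between larvae, and p-values are left out.

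*Turandot* genes are induced in the fat body by bacterial infection, heat, dehydration, ultraviolet light and other stresses. *TotA*, the founding member, is known to need the JAK/STAT pathway, in which cytokines of the Unpaired family bind the receptor Domeless, the kinase Hopscotch is activated and the transcription factor Stat92E moves to the nucleus. The NF-kappaB factor Relish of the Imd pathway and the stress-activated kinase Mekk1 are also known to act on *TotA*. Turandot peptides bind phosphatidylserine, and in flies they are known to shield tracheal cells from the host's own antimicrobial peptides.

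The deposited levels are in FPKM, sequenced fragments scaled to the length of the transcript and to the size of the library, so that genes of different length can be compared. Because 1 read is worth a fixed FPKM for a gene of known length, the values of all 8 genes could be turned back into whole reads. The 15 values above 0 and under 1000 reads came within 0.00752 of a whole number. The 7 values of 1000 reads or more came within 0.211. For the highest of these, the digits given no longer show a whole number, so their reads are approximate. Closeness to whole reads was also the rule for accepting a length, so it is not a separate check. For *TotX*, *TotE* and *TotF*, whose loci hold other entries, nearby lengths were also tried, and *TotX* took a length 1 base longer. The other members passed at the only length tried. The mapped fragments of the libraries, worked out in the same way, were about 15300000 in mxcmbn1, 11000000 in mxcG43 and 11300000 in Canton S. Exact 95% intervals on these reads accompany the ratios. They cover counting error only, not the spread between larvae or libraries.

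Among the libraries as a whole, levels of *mxc* were 3.56 FPKM in mxcmbn1, 1.94 FPKM in mxcG43 and 1.96 FPKM in Canton S. The male-specific RNA *roX1* was at 195, 201 and 247 FPKM in that order, and the 3 yolk protein genes together stayed under 1 FPKM in each library. The 6 testis genes examined summed to 14.6 FPKM in mxcmbn1, 713 FPKM in mxcG43 and 1017 FPKM in Canton S. In whole larvae, fewer cells of a type and less RNA per cell cannot be told apart.

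Each of the 8 *Turandot* genes was at its highest level in mxcmbn1. Together they summed to 33053 FPKM in mxcmbn1, 1479 FPKM in mxcG43 and 790 FPKM in Canton S, or 2.74%, 0.155% and 0.0646% of the FPKM sum of the library. In reads, the family held 187444 in mxcmbn1, 6136 in mxcG43 and 3354 in Canton S. These were 1.22%, 0.056% and 0.0297% of the mapped fragments, smaller shares than in FPKM.

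**Figure D1:**
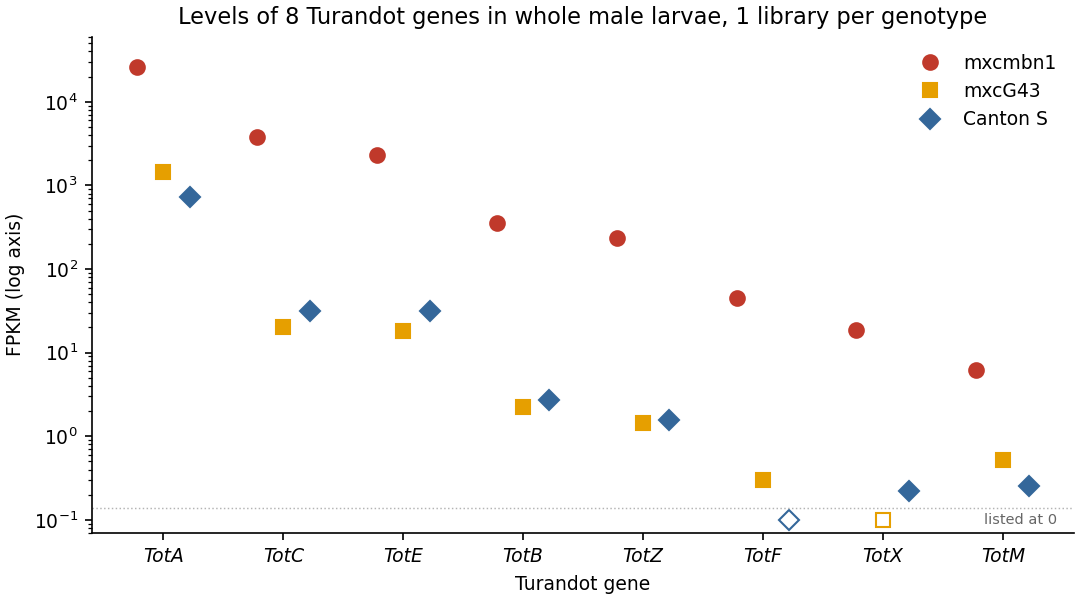
FPKM on a log axis of the 8 Turandot genes, with 1 point for each genotype (mxcmbn1, mxcG43 and Canton S; 1 library each, so no error bars) and open symbols for values listed at 0. The mxcmbn1 point is the highest for every gene, from 26212 FPKM for TotA down to 6.19 FPKM for TotM.

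*TotA* (XLOC_010011) was the most abundant of them in every library, at 26212 FPKM in mxcmbn1, 1436 FPKM in mxcG43 and 722 FPKM in Canton S, from 152641, 5981 and 3100 reads. It ranked 5th of all entries by FPKM in mxcmbn1, 88th in mxcG43 and 213th in Canton S. The level in mxcmbn1 was 36.3 times that in Canton S (95% interval 35.1 to 37.6) and 18.3 times that in mxcG43. *TotA* was thus already among the abundant transcripts of the wild-type larva, whereas the next member, *TotC*, ranked 2578th there.

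*TotC* (XLOC_010012), the nearest neighbour of *TotA* on the chromosome, was at 3836 FPKM in mxcmbn1, 20.2 FPKM in mxcG43 and 31.8 FPKM in Canton S, from 19631, 74 and 120 reads. Its level in mxcmbn1 was 121 times that in Canton S (101 to 146). *TotC* ranked 35th of all entries in mxcmbn1, against 3628th in mxcG43. *TotE* (XLOC_002714), which lies on another chromosome, had 2340 FPKM in mxcmbn1, 18.1 FPKM in mxcG43 and 31.7 FPKM in Canton S, from 11403, 63 and 114 reads. It was 73.8 times higher in mxcmbn1 than in Canton S (61.4 to 89.5). *TotC* and *TotE* thus stood at nearly the same level in Canton S and both were among the most abundant transcripts of mxcmbn1.

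*TotB* (XLOC_010013) and *TotZ* (XLOC_010014), the other members next to *TotA*, were of low level outside mxcmbn1. *TotB* had 358 FPKM in mxcmbn1, 2.25 FPKM in mxcG43 and 2.72 FPKM in Canton S, from 1785, 8 and 10 reads, a ratio of 132 of mxcmbn1 to Canton S (71.4 to 275). *TotZ* had 238 FPKM in mxcmbn1, 1.43 FPKM in mxcG43 and 1.58 FPKM in Canton S, from 1631, 7 and 8 reads, a ratio of 150.4 (76.1 to 349). The few reads in Canton S, not those in mxcmbn1, set the width of both intervals.

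The remaining members, *TotF* (XLOC_002713), *TotX* (XLOC_011821) and *TotM* (XLOC_000359), had no more than 2 reads in either of the other libraries. *TotF* was at 44.7 FPKM from 207 reads in mxcmbn1, against 0.302 FPKM from 1 read in mxcG43 and 0 in Canton S. Set against the level that 3 reads would give, *TotF* was at least 50.9-fold higher in mxcmbn1 than in Canton S. *TotX* was at 18.5 FPKM from 113 reads in mxcmbn1, listed at 0 in mxcG43 and at 0.222 FPKM from 1 read in Canton S, a ratio of 83.4 of mxcmbn1 to Canton S with an interval of 14.7 to 3321. *TotM*, a member known from resistance to fungal infection, was at 6.19 FPKM from 33 reads in mxcmbn1, 0.524 FPKM from 2 reads in mxcG43 and 0.254 FPKM from 1 read in Canton S. Its ratio of mxcmbn1 to Canton S was 24.3, with an interval of 4.08 to 990. *TotM* was the least abundant member in mxcmbn1 and had the lowest ratio, and its interval reached below 10 times.

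Genes were counted above a ratio of 10 times. Between mxcmbn1 and Canton S, 7 of the 7 members above 0 in both libraries passed it, beside 2.13% of all 12508 entries above 0 in both. This count rests in part on single reads. With levels of 3 reads or fewer set to that of 3 reads, *TotM* was at 8.11 times and lost the call, and *TotX* was at 27.8 times; with 1 FPKM added to both levels they were at 5.73 and 15.9 times. Under either alternative, 7 of 8 members were above 10 times, *TotF* included. The share of all entries was not worked out for these alternatives, and the 2.13% does not apply to them. The median log2 ratio of the 7 members was 6.38. *TotF*, at 0 in Canton S, has no ratio and is not in this count. With 0.1 FPKM added to both levels, which brings in *TotF*, the median log2 ratio of the 8 members was 6.56, beside -0.06 over all 13774 entries above 0 in either library. Ordered by their ratios among the 12508 entries, *TotZ* was 9th, *TotB* 13th, *TotC* 17th, *TotX* 30th, *TotE* 37th, *TotA* 93rd and *TotM* 112th. The most abundant member was therefore not among those with the highest ratios.

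**Figure D2:**
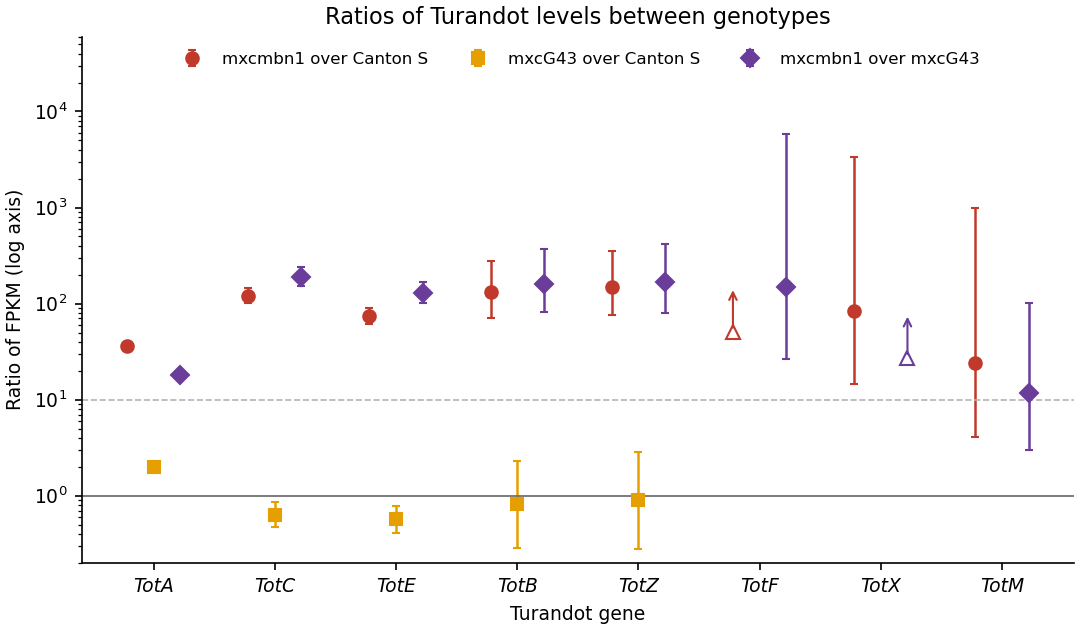
Ratios of FPKM on a log axis for the 8 Turandot genes, with bars for exact 95% counting intervals and open triangles with arrows for lower bounds set against 3 reads; no ratio is drawn where both libraries had 3 reads or fewer. The solid line marks equal levels and the dashed line 10 times: ratios of mxcmbn1 to either other genotype lie above the dashed line, and those of mxcG43 to Canton S lie between 0.570 and 1.99.

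The comparison of mxcG43 with Canton S places an *mxc* allele without tumours beside the wild type. None of the 5 members with a ratio was above 10 times, beside 1.05% of 12907 entries. None of the 5 was above 2 times, beside 7.91% of entries, and none below 0.5 times, beside 6.57%. These shares also count entries of few reads. By the same rule *TotM*, left out of the 5, would be above 2 times, at 2.06 from 2 reads against 1. *TotA*, at 1.99 times, lay at the limit of 2 times, which is a log2 ratio of 1. Its log2 ratio was 0.993. It was 1.01 after rescaling by the median ratio of all genes and 1.05 by the upper quartile of levels. Under either rescaling *TotA* would thus be above 2 times. With only 5 members, neither count sets them apart. The median log2 ratio of the 5 members was -0.28. With 0.1 FPKM added it was -0.20 over all 8, beside -0.03 over all entries above 0 in either library. The members did not share a direction. *TotA* was 1.99 times higher in mxcG43 than in Canton S (1.91 to 2.08). *TotC* was lower in mxcG43, at 0.636 times the Canton S level (0.469 to 0.857), and so was *TotE*, at 0.570 times (0.412 to 0.782). The intervals of *TotB* (0.283 to 2.32) and *TotZ* (0.279 to 2.85) included equal levels and would also have included a change of 2 times in either direction, so a difference of that size was not detectable at this depth. *TotF*, *TotM* and *TotX* had 3 reads or fewer in both libraries and are not among the 5.

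Between mxcmbn1 and mxcG43, 7 of the 7 members above 0 in both libraries were again above 10 times, beside 1.36% of 12547 entries. With levels of 3 reads or fewer set to that of 3 reads, *TotM* was at 7.87 times and lost the call, and *TotF* was at 49.4 times. Above 20 times the count was 5, and the share of all entries above 20 times was not worked out. This comparison shares the mxcmbn1 library with the comparison above. The ratio was 190 for *TotC* (151 to 242), 129 for *TotE* (101 to 169), 160 for *TotB* and 167 for *TotZ*. *TotF* reached 148 with an interval of 26.3 to 5876, *TotM* 11.8 with an interval of 3.02 to 102, and *TotX* was at least 26.9-fold higher in mxcmbn1. The median log2 ratio of the 7 members was 7.21, and it was 5.88 with 1 FPKM added to both levels, which also brings in *TotX*. Among all 12547 ratios *TotC* was 2nd and *TotZ* 6th.

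**Figure D3:**
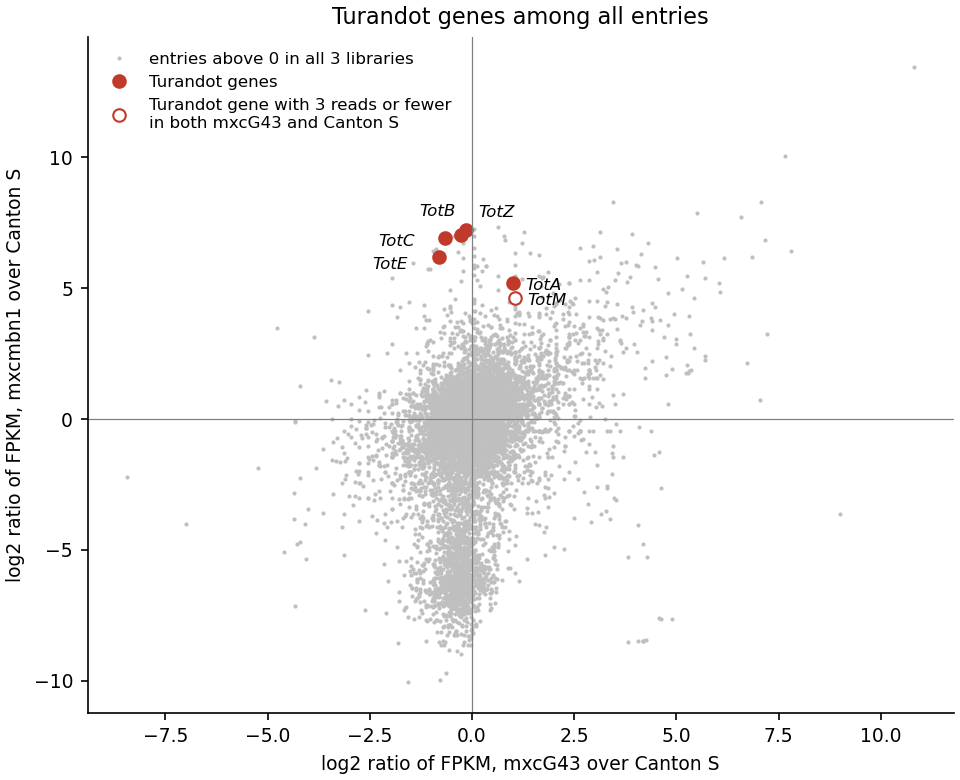
Each grey point is an entry above 0 in all 3 libraries, with the log2 ratio of FPKM of mxcG43 to Canton S on the x axis and that of mxcmbn1 to Canton S on the y axis; both axes share the Canton S library. The 6 Turandot genes above 0 in all libraries (red) lie at 4.61 or higher on the y axis, and the open symbol is TotM, whose place on the x axis rests on 2 reads in mxcG43 and 1 in Canton S.

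Within each library, the level per length of the leading members followed 1 order, *TotA* above *TotC*, *TotE*, *TotB* and *TotZ*. Not every step of this order was larger than counting error. *TotC* was 1.64 times *TotE* in mxcmbn1 (1.60 to 1.68), but 1.12 times in mxcG43 (0.788 to 1.59) and 1.002 times in Canton S (0.769 to 1.31). *TotB* and *TotZ* likewise differed beyond counting error in mxcmbn1, where *TotB* was 1.51 times *TotZ* (1.41 to 1.61), but not in mxcG43 (0.499 to 5.10) or Canton S (0.612 to 5.02). Below *TotZ* the order in mxcmbn1 was *TotF*, *TotX* and *TotM*, each step with an interval above 1. In the other libraries these members could not be ordered.

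The make-up of the family differed between the libraries. *TotA* accounted for 79.3% of the summed *Turandot* FPKM in mxcmbn1, 97.1% in mxcG43 and 91.4% in Canton S. The level of *TotA* was 6.83 times that of *TotC* in mxcmbn1 (6.73 to 6.94), 71.0 times in mxcG43 (56.5 to 90.6) and 22.7 times in Canton S (18.9 to 27.5), so that no interval overlapped another. *TotC*, in contrast, was 10.7 times *TotB* in mxcmbn1, 9.0 times in mxcG43 and 11.7 times in Canton S, with overlapping intervals. In other words, the ratio of mxcmbn1 to Canton S was 3.32 times larger for *TotC* than for *TotA*, 3.63 times larger for *TotB*, 4.14 times larger for *TotZ* and 2.03 times larger for *TotE*. The intervals of these 4 ratios all lay above the interval of *TotA*.

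Of the 8 genes, 5 lie on chromosome arm 3R in the BDGP5 build that the files use. *TotA* spans 3R:16696758-16697427, *TotC* 3R:16698710-16699310, *TotB* 3R:16699672-16700259 and *TotZ* 3R:16703458-16704164, 4 genes on the same strand within 7.41 kb. *TotX* belongs to a locus of 2 entries at 3R:16727716-16733987, on the opposite strand. *TotF* and *TotE* share a locus of 13 entries at 2L:19796365-19958424, within the gene *sick* and on its other strand, and *TotM* stands apart at 2L:5329857-5330464. In the BDGP6 annotation *TotX* has 1 exon and each of the others 2, and the predicted proteins are 125 to 147 residues long. The exons of *TotX*, *TotF* and *TotE* overlap no exon of the gene around them there. No sequence is shown, because reference sequences were not used here.

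The genes around the 3R group did not share its ratios of mxcmbn1 to Canton S, with 1 exception. *CG3822*, the nearest entry before *TotA*, was at 0.462 times, and *CG10830*, between *TotZ* and *TotX*, at 0.798 times. *RpS30*, a ribosomal protein gene further off, was at 0.982 times, and *CG5630*, after *TotX*, at 1.69 times. The exception was *CG5621*, the gene around *TotX*, with 1.195 FPKM in mxcmbn1, 0.188 FPKM in mxcG43 and 0.0303 FPKM in Canton S, a ratio of 39.4 of mxcmbn1 to Canton S. Its number of reads could not be recovered. The libraries keep the strand of the RNA, but alignment and quantification used default parameters, which treat reads as unstranded, so reads of *TotX* and *CG5621* may not be fully separated. Of the 8 neighbouring entries above 0 in both libraries, *CG5621* alone was above 10 times, beside 2.13% of all such entries.

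**Figure D4:**
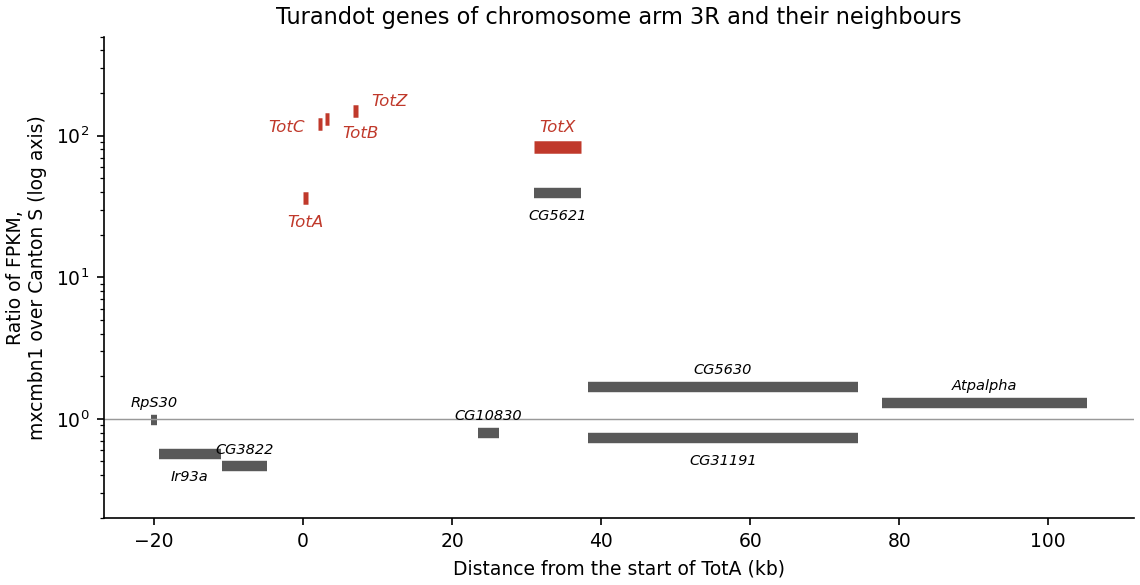
Ratio of FPKM of mxcmbn1 to Canton S on a log axis against the distance from the start of TotA in kb, with a bar over the span of each entry above 0 in both libraries (Turandot genes in red, neighbours in grey; TotX and CG5621 share 1 locus in the files). The red bars lie between 36.3 and 150.4 and the neighbours between 0.462 and 1.69, apart from CG5621 at 39.4.

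On 2L, in the locus of *TotF* and *TotE* and on its flanks, 12 other entries were above 0 in both libraries. None was above 10 times, beside 2.13% of all entries above 0 in both. *sick* itself was at 2.004 times and *CG13962*, the most abundant other entry within the locus, at 0.371 times. Around *TotM*, none of 8 entries was above 10 times, beside the same 2.13%, but some came close to 10 times. *nompC* was at 9.77 times, from 0.437 FPKM in mxcmbn1 and 0.0447 FPKM in Canton S, and *CG12512* at 2.49 times. *CG14022*, the nearest entry before *TotM*, came to 7.43 times, with 19.1 FPKM in mxcmbn1 and 2.57 FPKM in Canton S, while *cype* next to it was at 0.886 times. These ratios of *nompC* and *CG14022* lie within the interval of *TotM*, so neither is shown to differ from it. The other entries around *TotM* lay below that interval, at 2.49 times or less.

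The pathway that *TotA* is known to need was examined from the ligands down. *upd3*, the Unpaired cytokine that haemocytes make after infection, was at 2.20 FPKM in mxcmbn1, 0.406 FPKM in mxcG43 and 0.306 FPKM in Canton S. In the smallest whole reads that fit, these were 68, 9 and 7, and the ratio of mxcmbn1 to Canton S was 7.17 (3.30 to 18.5). *upd2* was 8.11 times higher in mxcmbn1, from 11 reads against 1 (1.18 to 349). The first ligand, listed as *os*, was at 0.406 FPKM in mxcmbn1, 0.719 FPKM in mxcG43 and 0.386 FPKM in Canton S.

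The signalling core had lower ratios than the *Turandot* genes. The receptor gene *dome* was at 1.53 times the Canton S level in mxcmbn1, the kinase gene *hop* at 1.85 times and *Stat92E* at 1.85 times. *et*, which encodes a short receptor that lowers signalling, was at 8.92 times, with 25.4 FPKM in mxcmbn1, 2.43 FPKM in mxcG43 and 2.85 FPKM in Canton S. *Socs36E*, a Stat92E target whose product dampens the pathway, was at 6.48 times, with 36.6 FPKM in mxcmbn1, 4.93 FPKM in mxcG43 and 5.64 FPKM in Canton S. Of the 6 inhibitor genes examined, 5 were higher in mxcmbn1 than in Canton S, beside 48.7% of all entries above 0 in both, with a median log2 ratio of 0.62. None of these 13 ligand, receptor, core and inhibitor genes was above 10 times Canton S in mxcmbn1. The share over all entries above 0 in both was 2.13%, so having none does not set them apart.

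Other humoral genes known to respond to JAK/STAT were also higher in mxcmbn1. *Tep1*, which encodes a thioester protein that marks microbes for uptake, had 98.2 FPKM in mxcmbn1, 3.97 FPKM in mxcG43 and 5.70 FPKM in Canton S, 17.2 times higher in mxcmbn1 than in Canton S. *Tep2* was at 6.08 times and *Tep4* at 5.96 times, and *Tep3* at 0.747 times. *Listericin*, an antibacterial gene, was at 4.66 times in mxcmbn1 and 2.12 times in mxcG43, and *vir-1*, a virus-induced gene, at 1.85 times in mxcmbn1. *Diedel*, another gene known to respond to JAK/STAT, was listed at 0 in all libraries. Over the 8 genes of the list, *Tep1* alone was above 10 times in mxcmbn1, beside 2.13% of all entries above 0 in both libraries.

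Genes of the other routes known to act on *TotA*, and of the Toll branch, were also read. *Mekk1* was at 2.22 times the Canton S level in mxcmbn1 and 1.24 times in mxcG43, and the 7 genes of the stress kinase branch had a median log2 ratio of 0.24 in mxcmbn1. *Rel*, which encodes Relish, was at 38.7 FPKM in mxcmbn1, 14.2 FPKM in mxcG43 and 23.9 FPKM in Canton S, and the 8 Imd genes had a median of 0.60. In the Toll branch, *spz*, which encodes the ligand of Toll, was at 91.3 FPKM in mxcmbn1, 7.16 FPKM in mxcG43 and 15.1 FPKM in Canton S, and the 6 entries had a median of 0.85. On the same scale, with 0.1 FPKM added, the median of the 8 *Turandot* genes was 6.56.

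Heat is a known inducer of *Turandot* genes, so the heat shock genes were read beside them. The 6 *Hsp70* copies, near-identical genes whose reads are hard to separate, were 38.5 to 52.2 times higher in mxcG43 than in Canton S and 3.38 to 5.29 times higher in mxcmbn1. *Hsp23*, a small heat shock gene, was at 97.0 FPKM in mxcmbn1, 1733 FPKM in mxcG43 and 475 FPKM in Canton S. Over the 16 heat shock and oxidative stress entries, the median log2 ratio to Canton S was -0.30 in mxcmbn1 and 1.65 in mxcG43, where 15 of 16 were higher. Over all entries above 0 in both, 47.3% were higher in mxcG43. The list summed to 1054 FPKM in mxcmbn1, 4181 FPKM in mxcG43 and 1966 FPKM in Canton S. In mxcG43, the library with the highest sum, *TotA* was higher and *TotC* and *TotE* were lower than in Canton S, as given above.

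**Figure D5:**
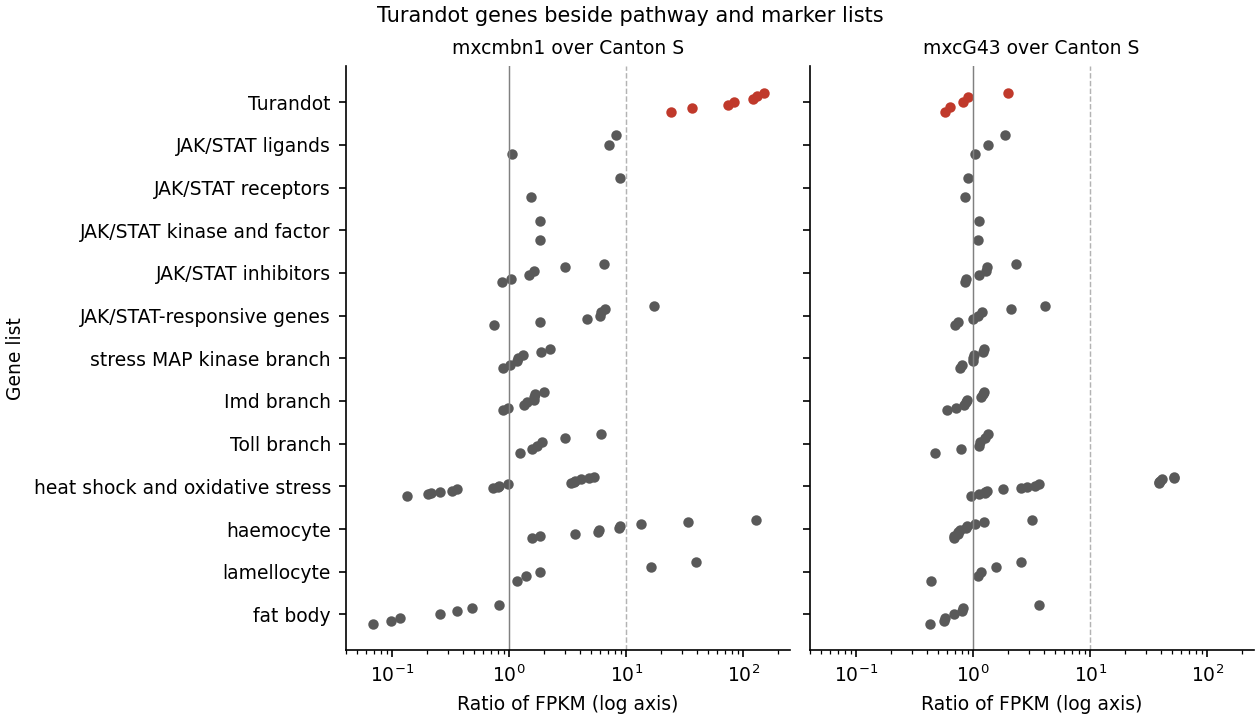
Ratio of FPKM to Canton S on a log axis in mxcmbn1 (left) and mxcG43 (right), with 1 point per entry above 0 in both libraries, for the Turandot genes (red) and the pathway and marker lists (grey); the solid line marks equal levels and the dashed line 10 times. The Turandot points lie at 24.3 or above on the left, and on the right, where TotM is not drawn because it rests on 2 reads and 1, at 1.99 or below.

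Cell type markers also differed between the libraries. All 7 fat body genes examined, among them the larval serum protein genes, were lower in mxcmbn1 than in Canton S, beside 51.3% of all entries above 0 in both, with summed levels of 9154 FPKM in mxcmbn1, 20469 FPKM in mxcG43 and 27404 FPKM in Canton S. Fat body genes were thus lower in the library in which *Turandot* genes were highest. All 10 haemocyte genes, *vir-1* among them, were higher in mxcmbn1 than in Canton S, beside 48.7% of all entries. The ratios ran from 1.57 (*crq*) to 128 (*NimC4*, at 0.328 FPKM in Canton S). Of these genes, 3 were above 10 times, beside 2.13% of all entries above 0 in both. The sums of all 10 were 1779 FPKM in mxcmbn1, 390 FPKM in mxcG43 and 470 FPKM in Canton S. Without *vir-1* they were 1259, 180 and 188 FPKM in that order. None of the markers of either list was at 0 in any library. The part of the cell make-up or the age of the larvae in the *Turandot* and marker levels was not tested.

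The genes most like the *Turandot* genes in pattern were sought among 5543 other entries with at least 10 FPKM in mxcmbn1 and a level above 0 in every library. Likeness was the distance between the log2 ratios of mxcmbn1 and mxcG43 to Canton S and the medians of the 6 members above 0 in all 3 libraries. *TotM* is among these 6, though its ratio of mxcG43 to Canton S rests on 2 reads against 1. The median for mxcG43 was -0.21 with it, beside -0.28 over the 5 members with a ratio. The nearest were *CR43855*, a non-coding RNA gene, at a distance of 0.174, *CG6788*, *CG42680*, the integrin gene *alphaPS5* and the immune-induced gene *IM14*, at up to 0.427. *CR43855* had 1526 FPKM in mxcmbn1, 12.2 FPKM in mxcG43 and 14.3 FPKM in Canton S, and its locus in the files is shared by 4 entries. *IM14* had 162 FPKM in mxcmbn1, 2.25 FPKM in mxcG43 and 2.18 FPKM in Canton S. With 3 libraries, such likeness describes 2 ratios and nothing more.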

How the data were processed

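RNA-seq libraries of whole male larvae, 1 per genotype, were made with the NEBNext Ultra Directional kit and sequenced as 51-bp reads. The authors used FastQC 0.11.5 for quality and TopHat 2.0.6 for alignment (genome build BDGP5), and deposited FPKM values per gene from Cufflinks. The annotation and the filter are not given in the sources used here. Members and gene lists were chosen with earlier results of these data known.

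Relative depth was found from low entries whose FPKM are ratios of small whole numbers: 1.36 for mxcmbn1 and 0.970 for mxcG43, relative to Canton S. Reads per FPKM followed a straight line in transcript length, within 0.03% for 254 of 551 entries with 1 transcript of 500 to 1500 bases. With each member's length, 506 to 652 bases, its FPKM gave whole reads. In 285 entries several genes are joined.

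Ratios used no pseudocount. Intervals are exact Clopper-Pearson on reads, and the floor was 3 reads. List medians used log2(FPKM + 0.1). Every listed gene may be named, with those above 10 times or below 0.1 times and the defining factors of each step preferred. Neighbours were the entries overlapping or between members and the nearest entries outside. The 5 genes most alike were taken by the distance given in the text. BDGP6 gave exons, strands and protein lengths, and the transcript and intron lengths behind the read numbers. The steps were also run on data simulated from the same straight line of reads per FPKM, with known lengths. Such a run checks the code, not whether the line holds for the members. Alternatives covered pseudocounts, rescaling, low reads, thresholds and, after the data were seen, leaving out *Victoria* and counting members under other levels. No test was run, since each genotype has 1 library. Proteins and promoters were not analysed here. Software was scipy 1.17.1, pandas 2.3.3, matplotlib 3.10.9 and numpy 2.4.6 under Python 3.11.15.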

Additional observations from a re-analysis of the deposited data

Results flagged for a closer look

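For 10 of the genes examined, mxcmbn1 and mxcG43 lay on opposite sides of Canton S, each by more than 1.5 times. With 1 library per genotype, the difference was not tested. The share of all entries that meet this rule was not worked out, so the count does not set these genes apart. *TotC* met the rule narrowly, 1.57 times lower in mxcG43 than in Canton S. The ratio of mxcmbn1 to mxcG43 was 190 for *TotC* and 129 for *TotE*, which were higher in mxcmbn1 and lower in mxcG43 than in Canton S. The immune genes *spz* and *Rel* had the same directions, with ratios of 12.8 and 2.72. Some small heat shock genes and *Hsp68* had the opposite directions. Their ratios of mxcmbn1 to mxcG43 were 0.0560 for *Hsp23*, 0.101 for *Hsp26*, 0.121 for *Hsp27*, 0.0397 for *Hsp67Bc* and 0.111 for *Hsp68*. *Hsp22*, joined with *Hsp67Bb*, was not among the 10, at 0.362 times Canton S in mxcmbn1 and 1.12 times in mxcG43. *Fbp1*, a fat body gene, had a ratio of 0.0271, from 111 FPKM in mxcmbn1 and 4098 FPKM in mxcG43, with 1129 FPKM in Canton S.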

How the results depend on the processing

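The median log2 ratio of the members between mxcmbn1 and mxcG43 was 7.21. It was 5.88 with 1 FPKM added to both levels and 6.32 with levels of 3 reads or fewer set to that of 3 reads, each over 8 members in place of 7. The count of members above 10 times in mxcG43 over Canton S was 0, and 1 when entries listed at 0 in Canton S were counted as higher, through 1 read of *TotF*. *TotM* lost its call above 10 times in mxcmbn1 under the same settings. It was at 8.11 times Canton S and 7.87 times mxcG43 with low reads set to 3, and at 5.73 times Canton S and 4.72 times mxcG43 with 1 FPKM added. *TotX* over Canton S was at 27.8 times with 3 reads and 15.9 times with 1 FPKM added, and the count above 20 times in mxcmbn1 over mxcG43 was 5 in place of 7. Of the other alternatives, 40 for the main results moved by no more than 1.5 times. Single genes were held to the counting interval and lists to 1.5 times. Within these limits 226 stayed, 7 did not, and 4 were the lost calls of *TotM*. None changed direction beyond these limits. Among the 7 was *TotA* after rescaling by the median ratio, outside its narrow interval. Its log2 ratio of mxcmbn1 to Canton S was 5.09 in place of 5.18. The median log2 ratio of the JAK/STAT ligands in mxcmbn1 to Canton S was also among them, 0.75 with 1 FPKM added in place of 2.22. Counts with low reads and with 1 FPKM added were chosen after seeing the data. Rescaling by the median ratio of all genes moved every log2 ratio of mxcmbn1 to mxcG43 by -0.12. No paired analysis was possible because each genotype has 1 library, and for the same reason no replicate could be left out. Depth limits *TotX*, *TotF* and *TotM*, which rest on 0 to 2 reads outside mxcmbn1, and *TotB* and *TotZ*, which rest on 7 to 10.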

Other observations

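Lamellocytes are large blood cells that appear after parasitism and in tumours of the blood system. Of 5 lamellocyte genes, 5 were higher in mxcmbn1 than in Canton S, beside 48.7% of all entries above 0 in both. Above 10 times were 2 of them, beside 2.13% of those entries. *cher*, *atilla* and *msn* were only 1.18, 1.40 and 1.83 times higher, and *cher* was at 0.748 times its mxcG43 level in mxcmbn1. *ItgaPS4*, an integrin gene, had 16.6 FPKM in mxcmbn1, 0.465 FPKM in mxcG43 and 0.424 FPKM in Canton S. *PPO3*, a prophenoloxidase gene, had 5.78 FPKM in mxcmbn1, 0.908 FPKM in mxcG43 and 0.352 FPKM in Canton S. *atilla*, the usual surface marker, was at 29.3 FPKM in mxcmbn1, 9.12 FPKM in mxcG43 and 20.9 FPKM in Canton S.

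Downstream of the locus of *TotF* and *TotE*, *CG42866* was at 1.64 FPKM and *CG34051* at 0.460 FPKM in mxcmbn1, and both were listed at 0 in mxcG43 and Canton S.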
